A study of Homo sapiens with 9 samples.

Results

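The genes described here are the D-type cyclins CCND1, CCND2 and CCND3, the E-type cyclins CCNE1 and CCNE2, the kinases CDK2, CDK4 and CDK6, and the transcription factors E2F1 and E2F2. These 10 genes were taken by name from the 61552 genes listed for each library. RNA had been sequenced from MDA-MB-231, an established human line of triple-negative breast cancer (TNBC) labelled wild type. The cells had received 2-deoxy-glucose (2-DG), a glucose analogue that blocks glycolysis, at 10 mM or 20 mM, or PBS as the control without 2-DG (0 mM), for 24 h, with 3 libraries in each of the 3 groups. The line was grown in DMEM with serum, and the labels do not say whether the 3 libraries of a group came from separate cultures, so the p-values below measure only the spread between these libraries.

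In cycling cells, growth signals raise the D-type cyclins, which bind and switch on CDK4 and CDK6. These kinases phosphorylate the retinoblastoma protein RB1 and release E2F factors, which transcribe E-type cyclins, other E2F genes and the enzymes of DNA synthesis. Cyclin E with CDK2 then completes the phosphorylation of RB1, and the cell passes from G1 into S phase. TNBC cells such as MDA-MB-231 commonly cycle fast, and the kinases of this step are drug targets in breast cancer.

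The libraries held between 30974968 and 40843638 reads counted on genes, as recovered from the deposited FPKM (reads scaled by gene length and by the reads counted in the library). All 6 markers set for MDA-MB-231 (VIM, CD44, EGFR, AXL, CAV1 and MSN) were over 1 FPKM in every library, and their summed level lay at 814 to 834 FPKM in control libraries, 735 to 810 at 10 mM and 751 to 784 at 20 mM. Of 7 hormone receptor and luminal markers, 3 (ESR1, PGR and FOXA1) were under 0.1 FPKM in every library, and the sum, mostly the keratin KRT19, was 264 to 310 FPKM without 2-DG, 179 to 230 at 10 mM and 184 to 193 at 20 mM. Of 10 leukocyte, endothelial and fibroblast markers, 7 were under 0.1 FPKM in every library, and the sum was 2.20 to 2.61, 1.37 to 1.71 and 1.16 to 1.38 FPKM. The part of these shifts in the results below was not tested. All 10 genes were among the 16570 that passed a filter on low reads.

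At 20 mM 2-DG, 7 of the 10 genes were lower than in the control and 2 were higher. By mean FPKM, E2F2 fell 7.78-fold and CCNE2 3.70-fold, whereas CCND2 rose 3.00-fold and CDK6 1.39-fold, and CDK4 did not pass the test. Genes were called at a Benjamini-Hochberg adjusted p under 0.05 from limma's moderated test on log2(FPKM + 1), fitted over all 9 libraries. Over all genes tested, 21.6% were called lower and 15.4% higher in this comparison. At 10 mM 2-DG the split was again 7 lower, 2 higher and 1 not called, where 17.5% of all genes were called lower and 12.1% higher. When a call needed a log2 difference beyond 1 in size and an unadjusted p below 0.05, E2F1 and E2F2 were lower at 10 mM and E2F1, E2F2 and CDK2 at 20 mM (2 and 3 genes), where 1.16% and 1.96% of all genes were lower, and 0 of the 10 genes were higher, where 0.579% and 0.966% of all genes were. These counts depend on the value added to FPKM. With 0.1 in place of 1, CCNE2, CDK2, E2F1 and E2F2 were lower (4 genes) and CCND2 was higher (1 gene) at each dose, where 3.42% and 5.23% of all genes were lower and 2.64% and 3.75% higher. The libraries of the treated and control groups did not overlap for 2 genes higher and 7 lower at 10 mM (17.8% and 22.7% of all genes), and for 2 higher and 8 lower at 20 mM (23.3% and 29.9% of all genes). The median log2 difference of the 10 genes was -0.57 at 10 mM and -0.72 at 20 mM, beside -0.01 and -0.02 over all genes. Both comparisons used the same control libraries, so they are not independent of each other. In bulk RNA of this kind, fewer cells in a phase of the cycle and less RNA per cell cannot be told apart.

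**Figure D1:**
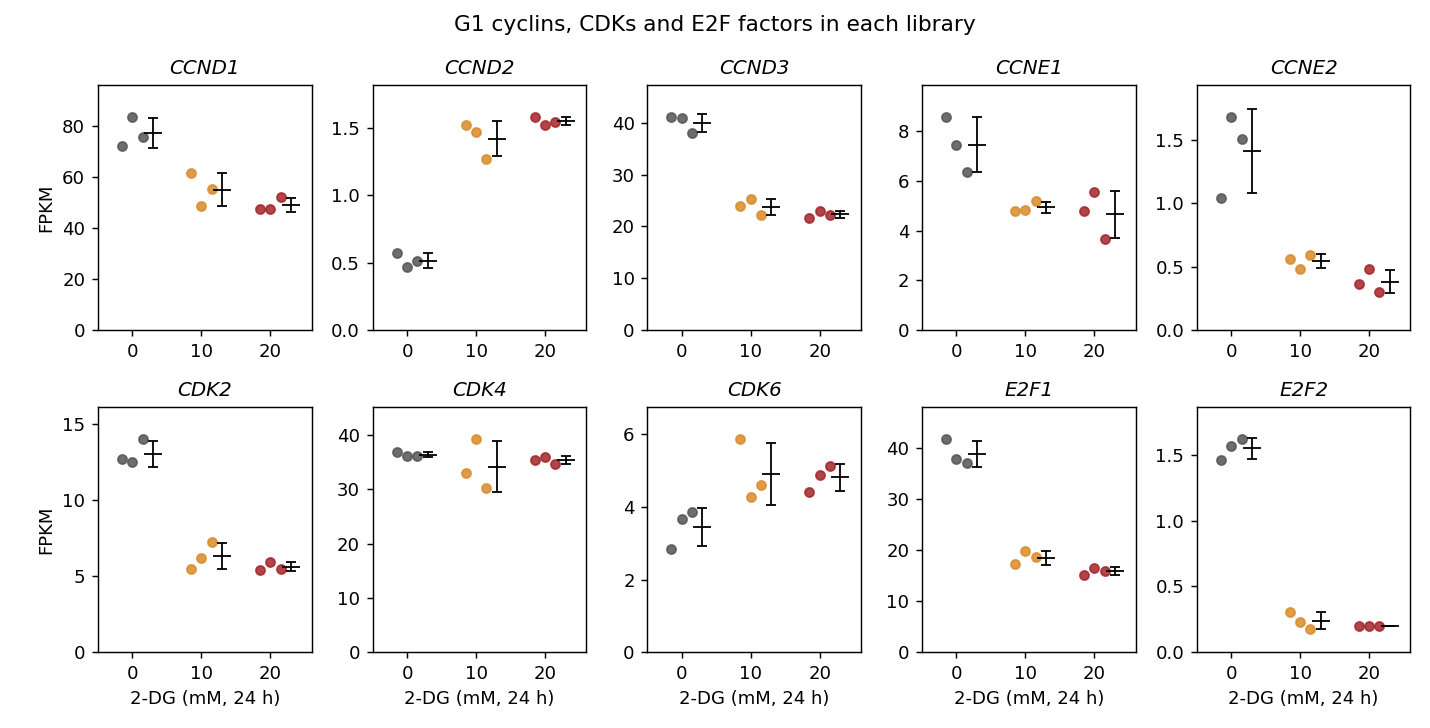
FPKM (vertical axis, from 0, with its own range in each panel) of the 10 genes by 2-DG dose in mM, with 1 point per library and the mean and SD of 3 libraries beside them. All treated libraries lie below all control libraries for E2F1 (15.1 to 19.9 against 37.0 to 41.8) and E2F2, and above them for CCND2 and CDK6, while CDK4 stays between 30.3 and 39.3.

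CCND1 encodes cyclin D1, the D-type cyclin most often raised in breast cancer, and was the highest of the 10 genes in every group (ENSG00000110092, chromosome 11, 69641087 to 69654474, plus strand, GRCh38). Its level was 72.4, 83.7 and 76.0 FPKM in the control libraries, 61.5, 48.6 and 55.4 at 10 mM, and 47.6, 47.5 and 52.4 at 20 mM. Every treated library was below every control library. The group means were 77.4 ± 5.77, 55.2 ± 6.44 and 49.2 ± 2.83 FPKM (SD, n = 3), and the log2 difference from the control was -0.48 ± 0.09 (SE; adjusted p = 0.00315, limma) at 10 mM and -0.64 ± 0.09 (adjusted p = 0.000436) at 20 mM.

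CCND3, cyclin D3, was the second D-type cyclin by level and also fell (ENSG00000112576, chromosome 6, 41934933 to 42050357, minus strand). It was at 41.1, 40.9 and 38.0 FPKM in the control, 23.9, 25.2 and 22.2 at 10 mM, and 21.6, 23.0 and 22.2 at 20 mM. The lowest control library stood well above the highest treated library, while the libraries of the 2 doses overlapped. The log2 difference was -0.73 ± 0.062 (95% interval -0.87 to -0.59; adjusted p = 3.18e-05, limma) at 10 mM and -0.81 (-0.95 to -0.68; adjusted p = 9.21e-06) at 20 mM, a level 1.79-fold lower.

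CCND2, cyclin D2, was the lowest of the 10 genes in the control and the one that rose most (ENSG00000118971, chromosome 12, 4273772 to 4305350, plus strand). It was at 0.571, 0.465 and 0.511 FPKM in the control, 1.52, 1.47 and 1.27 at 10 mM, and 1.58, 1.52 and 1.54 at 20 mM. All 6 treated libraries stood above all 3 control libraries. Summed over 3 libraries, the reads behind these levels numbered 219 without 2-DG, 629 at the lower and 640 at the higher dose. The ratio of the mean FPKM was 2.76 at 10 mM and 3.00 at 20 mM. The fitted log2 difference was 0.68 ± 0.073 (adjusted p = 0.000131, limma) and 0.75 ± 0.073 (adjusted p = 4.49e-05), smaller than the log2 ratio of means of 1.47 and 1.58 since 1 is added to each FPKM. Of all genes tested, 2.13% had a larger log2 difference at 20 mM.

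The D-type cyclins as a family were thus mostly CCND1 and CCND3 in all groups. Their summed level was 118 ± 6.23 FPKM (SD, n = 3) in control libraries, 80.4 ± 5.98 at 10 mM and 73.0 ± 2.86 at 20 mM. CCND1 made up 65.6%, 68.6% and 67.3% of the sum and CCND3 34.0%, 29.7% and 30.6%, with library ranges that overlapped between the control and both doses for CCND1. CCND2 made up 0.371 to 0.501% of the sum in the control libraries, 1.62 to 1.95% at 10 mM and 2.03 to 2.23% at 20 mM, so its rise left the family's sum far below that of the control. The FPKM of CCND2 rest on a gene length of 3994 bases, while its exons span 7157 bases in GENCODE release 29. The same reads divided by the longer length would give a lower level. Reads on the exon bases left out are not known. The level, share and ratio between groups on that length therefore cannot be given. These shares are given as a description, with no test.

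CCNE1 encodes cyclin E1, the main E-type cyclin by RNA in these cells (ENSG00000105173, chromosome 19, 29811898 to 29824308, plus strand). It was at 8.57, 7.43 and 6.36 FPKM in the control, 4.78, 4.84 and 5.19 at 10 mM, and 4.78, 5.54 and 3.67 at 20 mM. No treated library reached the lowest control library, and the 20 mM libraries spread on both sides of those at 10 mM. The log2 difference was -0.50 ± 0.13 (95% interval -0.80 to -0.21; adjusted p = 0.0169, limma) at 10 mM and -0.58 (-0.88 to -0.29; adjusted p = 0.00646) at 20 mM. Without control replicate 1, the highest control library, the 10 mM difference was -0.41 and was no longer called (adjusted p = 0.0613).

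CCNE2, cyclin E2, shares the partner CDK2 with cyclin E1 and was the lower of the E-type cyclins (ENSG00000175305). It was at 1.04, 1.68 and 1.51 FPKM in the control, 0.563, 0.479 and 0.589 at 10 mM, and 0.360, 0.480 and 0.303 at 20 mM, from 660, 262 and 177 reads over the 3 libraries of each group. The control libraries lay above all treated libraries. The mean FPKM was 2.59-fold lower at 10 mM and 3.70-fold lower at 20 mM, with fitted log2 differences of -0.63 ± 0.10 (adjusted p = 0.00136, limma) and -0.79 ± 0.10 (adjusted p = 0.000244). The exons of CCNE2 share 1629 bases, 37.0% of its exon length, with INTS8 on the opposite strand. The strand setting of the counting is not given in the sources used here, so reads of these genes may be mixed. INTS8 was at 3.67, 3.30 and 3.11 FPKM in the 3 groups and was not called at 10 mM (adjusted p = 0.411) or at 20 mM (adjusted p = 0.183).

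Summed over both genes, E-type cyclin RNA was 8.86 ± 0.892 FPKM without 2-DG, 5.48 ± 0.258 at 10 mM and 5.04 ± 1.02 at 20 mM (SD, n = 3). CCNE2 made up 10.8 to 19.2% of it in the control libraries, 8.99 to 10.5% at 10 mM and 7.01 to 7.98% at 20 mM. The ratio of D-type to E-type cyclin FPKM was 11.9 to 14.5 in control libraries, 13.7 to 16.3 at 10 mM and 12.0 to 19.2 at 20 mM, and these ranges overlapped.

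**Figure D2:**
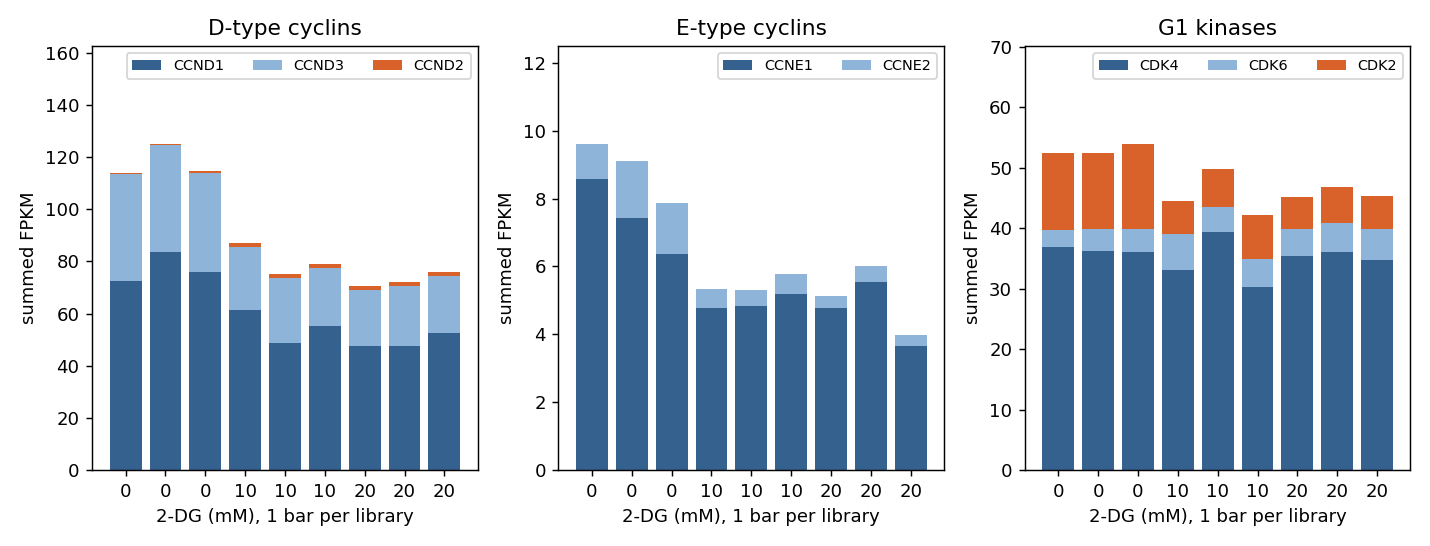
Summed FPKM (vertical axis, from 0) of the D-type cyclins, the E-type cyclins and the kinases CDK4, CDK6 and CDK2, with 1 stacked bar per library ordered by 2-DG dose in mM and control replicates first. The D-type bars fall from 114 to 125 FPKM in the control to 70.7 to 76.2 at 20 mM, and in the kinase panel the CDK2 segment shrinks while CDK4 remains the main part.

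The kinases went 3 ways. CDK2, the partner of cyclins E and A, fell at both doses (ENSG00000123374, chromosome 12, 55966769 to 55972784, plus strand). It was at 12.7, 12.5 and 14.0 FPKM in the control, 5.49, 6.21 and 7.22 at 10 mM, and 5.42, 5.95 and 5.44 at 20 mM. The highest treated library lay well below the lowest control library, and the libraries of the 2 doses overlapped. The mean was 2.07-fold lower at 10 mM (log2 difference -0.95 ± 0.093, adjusted p = 7.46e-05, limma) and 2.33-fold lower at 20 mM (-1.09 ± 0.093, adjusted p = 1.92e-05).

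CDK4, the kinase partner of the D-type cyclins with the higher RNA level here, moved least (ENSG00000135446, chromosome 12, 57747727 to 57756013, minus strand). It was at 36.9, 36.2 and 36.1 FPKM in the control, 33.1, 39.3 and 30.3 at 10 mM, and 35.4, 36.0 and 34.7 at 20 mM. The 10 mM libraries fell on both sides of the control, and those at 20 mM lay just below it, at 36.0 against 36.1 FPKM for the nearest libraries. The log2 difference was -0.09 (95% interval -0.28 to 0.09; adjusted p = 0.438, limma) at 10 mM and -0.04 (-0.22 to 0.15; adjusted p = 0.752) at 20 mM. Both intervals leave out a fall as large as that of CDK2. Without 10 mM replicate 2 the 10 mM difference was -0.19 and was called (adjusted p = 0.0275), and the sign at 20 mM turned under other scalings of the libraries (0.02 with median-ratio and 0.05 with upper-quartile factors, neither called). The exons of CDK4 share 1369 bases (43.2%) with TSPAN31 on the opposite strand, which was at 2.47, 2.10 and 2.26 FPKM. Smaller overlaps on the opposite strand concern CCND1 with LTO1 (10.3% of its exon bases; LTO1 was at 4.81, 4.78 and 4.39 FPKM) and CDK2 with a gene listed at 0 (14.5%). On the same strand, CCND2 shares 13.8% of its exon bases with AC008012.1, whose group means were at most 0.00558 FPKM. The annotation also names pseudogenes after CCND2 (1), CCND3 (2) and CDK4 (1), and how reads shared with them were counted is not given in the sources used here.

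CDK6, the other kinase of the D-type cyclins, was higher after 2-DG (ENSG00000105810, chromosome 7, 92604921 to 92836594, minus strand). It was at 2.85, 3.66 and 3.85 FPKM in the control, 5.87, 4.26 and 4.59 at 10 mM, and 4.42, 4.88 and 5.13 at 20 mM. The groups did not overlap, but the highest control library and the lowest treated library were close, at 3.85 and 4.26 FPKM. The log2 difference was 0.41 ± 0.12 (adjusted p = 0.0337, limma) at 10 mM and 0.39 ± 0.12 (adjusted p = 0.0331) at 20 mM. This call was the weakest of the 9. At 10 mM it was lost without control replicate 1 (log2 difference 0.30, adjusted p = 0.108) or 2 (0.44, adjusted p = 0.0548), without 10 mM replicate 1 (0.29, adjusted p = 0.0936) or 3 (0.44, adjusted p = 0.0568), and without 20 mM replicate 2 (0.41, adjusted p = 0.0517). At 20 mM it was lost without control replicate 1 (0.29, adjusted p = 0.108) or 2 (0.42, adjusted p = 0.0516) and without 20 mM replicate 2 (0.38, adjusted p = 0.0875) or 3 (0.35, adjusted p = 0.104). With a replicate block in limma the adjusted p was 0.0665 and 0.064. Whether the replicate numbers pair the libraries is not known.

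The summed level of CDK4 and CDK6 was 39.7 to 39.9 FPKM without 2-DG, 34.9 to 43.6 at 10 mM and 39.8 to 40.9 at 20 mM. CDK6 made up 8.67% ± 1.31, 12.7% ± 2.67 and 12.0% ± 0.90 of it (SD, n = 3). Set against CDK2, the kinases of the D-type cyclins stood at a ratio of 2.85 to 3.20 in the control libraries, 4.83 to 7.10 at 10 mM and 6.88 to 7.35 at 20 mM. The kinase makeup thus shifted from CDK2 towards CDK4 and CDK6, given as a description with no test.

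E2F1 and E2F2 are activator E2Fs, which switch on genes of DNA synthesis once RB1 releases them, and both can be transcribed from E2F sites in their own promoters. Their promoters are shown for that reason. In RefSeq's promoter table (GRCh38.p14), 6 of the 10 genes have an entry (CCND3, CCNE1, CDK4, CDK6, E2F1 and E2F2), with 9 windows. Each window was searched over the 250 bases before the start for the E2F consensus, spelled TTTCCCGC, TTTCGCGC, TTTGCCGC or TTTGGCGC, on either strand. E2F1 and E2F2 held a match, and the windows of CCND3, CCNE1, CDK4 and CDK6 held no such letters. Of all 35116 windows 2.79% hold a match, and of 27305 gene symbols 3.40%. The 250 bases are written 5′ to 3′ on the strand of the gene, which is the minus strand for both, with the matches in capitals. E2F1 lies at chr20:33686386-33686635 and E2F2 at chr1:23531234-23531483.
E2F1: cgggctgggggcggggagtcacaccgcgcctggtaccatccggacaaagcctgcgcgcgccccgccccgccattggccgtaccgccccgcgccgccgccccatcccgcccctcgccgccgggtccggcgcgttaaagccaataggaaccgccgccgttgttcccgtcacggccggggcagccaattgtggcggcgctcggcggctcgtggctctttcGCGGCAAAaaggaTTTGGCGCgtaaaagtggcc
E2F2: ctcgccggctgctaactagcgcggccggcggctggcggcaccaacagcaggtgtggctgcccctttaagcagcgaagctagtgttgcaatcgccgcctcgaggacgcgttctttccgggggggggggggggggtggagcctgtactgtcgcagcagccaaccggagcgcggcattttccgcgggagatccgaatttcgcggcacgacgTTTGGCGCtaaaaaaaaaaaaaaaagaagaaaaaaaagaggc
In E2F1 the first match begins 33 bases before the start, as the reverse complement of TTTGCCGC, and the second begins 20 bases before it. In E2F2 the single match begins 42 bases before the start. E2F1 and E2F2 thus share the letters TTTGGCGC in the same orientation close to their starts. A match is a string of letters and was not tested for binding.

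E2F1 had about the level of CCND3 and CDK4 in the control (ENSG00000101412, chromosome 20, 33675683 to 33686404, minus strand). It was at 41.8, 37.9 and 37.0 FPKM in the control, 17.2, 19.9 and 18.6 at 10 mM, and 15.1, 16.6 and 16.0 at 20 mM. All 3 groups were apart from each other. The mean was 2.10-fold lower at 10 mM (log2 difference -1.03 ± 0.071, adjusted p = 9.28e-06, limma) and 2.45-fold lower at 20 mM (-1.24 ± 0.071, adjusted p = 1.73e-06). Of all genes tested, 98.9% had a higher log2 difference than E2F1 at 20 mM.

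E2F2 showed the largest ratio of the 10 genes (ENSG00000007968, chromosome 1, 23506430 to 23531220, minus strand). It was at 1.46, 1.57 and 1.62 FPKM in the control, 0.307, 0.233 and 0.176 at 10 mM, and 0.201, 0.198 and 0.199 at 20 mM. The control libraries were far above all treated libraries. Those at 20 mM were nearly alike, with an SD of 0.769% of the mean. That is less than their counting error of 16.3%, so it is no measure of precision. The levels rest on 902, 144 and 113 reads over the 3 libraries of each group. The mean FPKM was 6.50-fold lower at 10 mM and 7.78-fold lower at 20 mM, log2 ratios of -2.7 and -2.96. The fitted log2 differences were -1.04 ± 0.058 (adjusted p = 3.16e-06, limma) and -1.09 ± 0.058 (adjusted p = 1.06e-06). Adding 1 to each FPKM shrinks these differences and their SE in so low a gene, so the SE does not give the precision of the ratios. The ratio of E2F1 to E2F2 was 22.9 to 28.6 in control libraries, 55.9 to 106 at 10 mM and 75.4 to 83.7 at 20 mM, so E2F1 made up still more of the pair after treatment.

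Between the 2 doses, 0 of the 10 genes were called by limma on log2(FPKM + 1) or by limma-voom on the recovered reads, and 0.0% of all genes tested were called. At an unadjusted p under 0.05, 1 of the 10 genes and 6.88% of all genes passed. That gene was E2F1, lower at 20 mM by 0.21 on the log2 scale (95% interval -0.37 to -0.05; adjusted p = 0.545, limma). It was also the 1 gene of the 10 whose 10 mM and 20 mM libraries did not overlap, beside 11.9% of all genes tested. Of the 10 genes, 8 had a log2 difference below 0, as had 54.8% of all genes tested, and the signs of CCNE1 and CDK6 among the 8 turned when single libraries were left out. The intervals for CCND3 (-0.22 to 0.05) and E2F2 (-0.18 to 0.08) were among the narrowest, and that of CCNE1 (-0.37 to 0.21) was the widest. Adding 1 narrows the E2F2 interval, since its means were only 0.239 and 0.199 FPKM, with counting errors of 14.4% and 16.3%. Its log2 ratio of mean FPKM was -0.26, outside that interval, so the narrow interval does not exclude a difference between the doses. For CCNE2 the log2 ratio of mean FPKM was -0.51. The fitted difference, with 1 added, was -0.16 (95% interval -0.39 to 0.06; adjusted p = 0.856, limma). With limma-voom on the reads it was -0.5 (adjusted p = 0.869). A difference between the doses was thus not called, and these values do not exclude it.

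**Figure D3:**
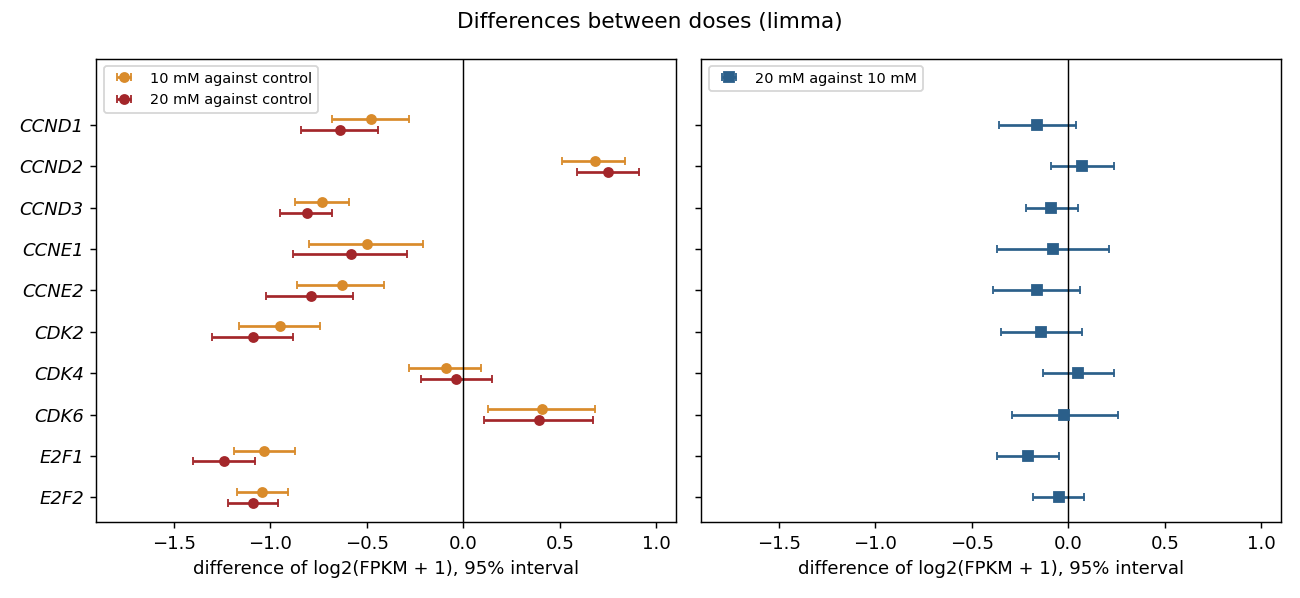
Difference of log2(FPKM + 1) (horizontal axis) with its 95% interval from limma for each gene, against the control (left) and between the doses (right). Against the control 7 genes lie left of 0, CCND2 and CDK6 lie right of it and the CDK4 intervals span it, while between the doses the interval of E2F1 (-0.37 to -0.05) is the 1 that does not reach 0.

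The order of the 10 genes by FPKM, which is per length, changed with treatment. In the control it ran CCND1, CCND3, E2F1, CDK4, CDK2, CCNE1, CDK6, E2F2, CCNE2 and CCND2, where the neighbours CCND3 and E2F1, and E2F2 and CCNE2, overlapped between libraries. At 10 mM it ran CCND1, CDK4, CCND3, E2F1, CDK2, CCNE1, CDK6, CCND2, CCNE2 and E2F2, and CCNE1 and CDK6 overlapped. At 20 mM CDK6 and CCNE1 changed places, and again overlapped. CCND2 thus moved from the last place to the eighth, and E2F2 from the eighth to the last.

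The partners of these genes were followed in lists of the G1 to S network. For every list below, the shares over all genes tested were 17.5% lower and 12.1% higher at 10 mM. At 20 mM they were 21.6% lower and 15.4% higher. Of 11 pocket proteins and other E2F and DP genes, all tested, 1 was higher and 5 were lower at 10 mM, and 1 was higher and 6 were lower at 20 mM (median log2 difference -0.30 and -0.45). RB1, the pocket protein that holds activator E2Fs, was at 4.43, 3.42 and 2.89 FPKM and was lower at 20 mM (log2 difference -0.47 ± 0.16, adjusted p = 0.0422, limma) but was not called at 10 mM (-0.30, adjusted p = 0.189). RBL1, its relative p107, fell by 0.65 and 0.95 on the log2 scale (adjusted p = 0.009 and 0.000856).

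The other E2F genes did not move as one. E2F3, the third activator, was at 8.55, 7.14 and 7.33 FPKM and was not called (log2 difference -0.24, adjusted p = 0.115, and -0.20, adjusted p = 0.171, limma). The atypical repressors E2F7 and E2F8 moved in opposite directions: E2F7 rose from 13.5 ± 1.97 FPKM to 22.6 ± 6.77 and 25.2 ± 1.55 (adjusted p = 0.0199 and 0.00469), and E2F8 fell from 4.14 ± 0.336 to 1.00 ± 0.206 and 0.627 ± 0.0895 (adjusted p = 1.42e-05 and 2.39e-06). E2F5, which acts with pocket proteins in resting cells, was at 1.75, 2.06 and 2.13 FPKM (adjusted p = 0.139 at 20 mM).

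Of 7 CDK inhibitors, 5 were tested. At 10 mM 1 was higher and 3 were lower, and at 20 mM 1 was higher and 4 were lower (median log2 difference -0.43 and -0.40). CDKN1A, the p21 inhibitor, rose from 44.8 ± 3.00 to 63.3 ± 5.08 and 73.1 ± 5.83 FPKM (adjusted p = 0.00164 and 0.000146, limma). CDKN1B, the p27 inhibitor of CDK2, was at 4.04, 3.24 and 3.17 FPKM and was lower at 20 mM (log2 difference -0.27, adjusted p = 0.0351) but not called at 10 mM (adjusted p = 0.0612). The inhibitors of CDK4 and CDK6 of the INK4 class fell: CDKN2C from 16.7 to 4.51 and 3.08 FPKM (log2 difference -1.69 and -2.12, adjusted p = 3.16e-06 and 5.08e-07), and CDKN2D from 43.3 to 20.6 and 18.9 FPKM (adjusted p = 0.000241 and 9.32e-05). CDKN2B was listed at 0 in every library, and CDKN2A, known to be deleted in this line, was listed at 0 in all control and 10 mM libraries and reached 0.0166 FPKM at most in those at 20 mM.

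Of 13 genes that activate or turn over the cyclin-CDK complexes, 0 were higher and 5 lower at each dose (median log2 difference -0.20 and -0.19). CDC25A, the phosphatase that activates CDK2, was at 8.20 ± 0.310, 4.06 ± 0.332 and 2.85 ± 0.122 FPKM (log2 difference -0.87 and -1.26, adjusted p = 4.33e-05 and 2.47e-06, limma). CKS1B, a small CDK-binding subunit, was at 66.3, 40.5 and 37.7 FPKM (adjusted p = 0.000537 and 0.000172). CDK7, the kinase that activates CDKs, was at 20.9, 23.9 and 23.8 FPKM, and FBXW7, which marks cyclin E for breakdown, was at 1.05, 1.30 and 1.34 FPKM, and neither was called (adjusted p = 0.102 and 0.16 at 20 mM).

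The targets fell nearly throughout. Of 30 E2F target genes of S phase entry, 29 were lower and 0 higher at each dose, with a median log2 difference of -0.94 at 10 mM and -1.13 at 20 mM. MYBL2, a transcription factor, fell from 61.5 to 15.3 and 11.8 FPKM, RRM2, a subunit of ribonucleotide reductase, from 16.3 to 3.68 and 2.65, and CCNA2, the S phase cyclin that takes over CDK2, from 33.4 to 10.1 and 6.90 (adjusted p = 1.71e-07, 6.75e-07 and 8.3e-07 at 20 mM, limma). POLA2, a subunit of DNA polymerase alpha, fell from 0.994 to 0.560 and 0.529 FPKM (adjusted p = 0.00112 at 20 mM), and GINS3, of the replicative helicase, was the gene not called (1.80, 1.49 and 1.40 FPKM, adjusted p = 0.219 and 0.0982). These target genes were lower by more than the 10 G1 genes at the median, given with no test. All 12 G2 and M phase genes were lower at each dose (median log2 difference -1.29 and -1.61), with CDK1 at 21.1, 6.15 and 4.09 FPKM and PLK1 at 30.8, 10.1 and 7.07 at one end, and TTK (5.84, 2.30 and 1.77) and FOXM1 (39.0, 20.0 and 15.7) at the other.

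**Figure D4:**
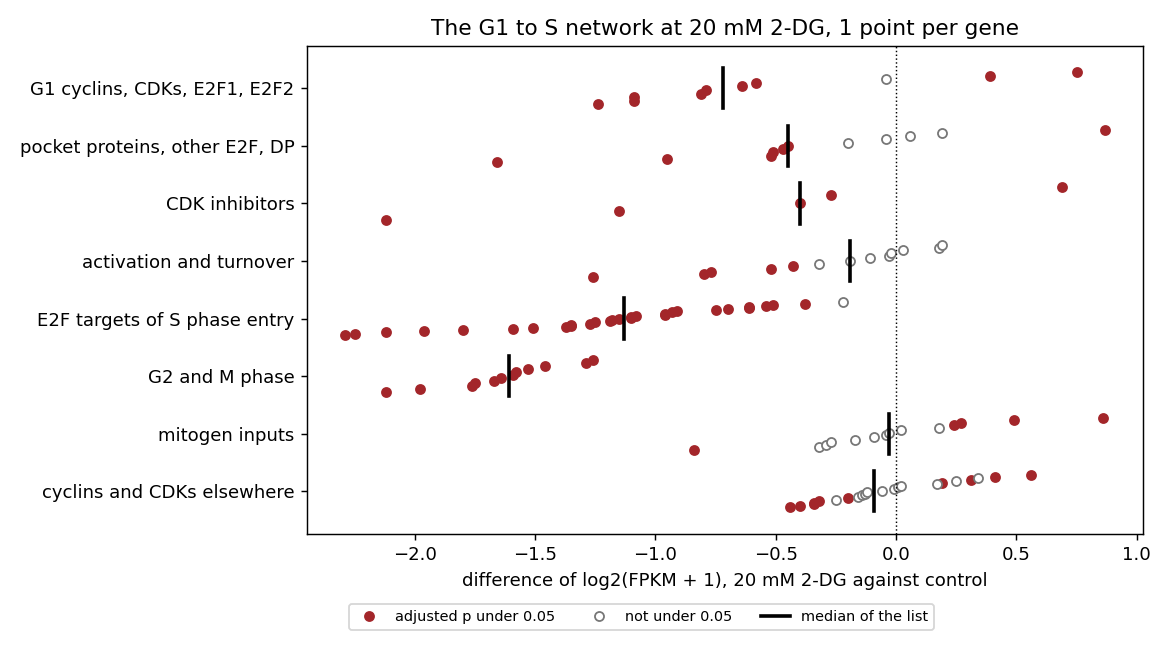
Difference of log2(FPKM + 1) at 20 mM 2-DG against the control (horizontal axis) for each tested gene of 8 lists, filled where the adjusted p was under 0.05, with a bar at the median of the list. The medians lie at -1.61 for G2 and M phase genes, -1.13 for E2F targets, -0.72 for the 10 G1 genes, and near 0 for mitogen inputs and for cyclins and CDKs outside the G1 to S step.

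Upstream of the D-type cyclins, 14 mitogen input genes showed 3 higher and 2 lower at 10 mM and 4 higher and 1 lower at 20 mM (median log2 difference -0.01 and -0.03). MYC rose from 41.0 ± 1.64 to 51.1 ± 1.78 and 57.8 ± 1.21 FPKM (adjusted p = 0.00182 and 8.88e-05, limma), and EGFR from 14.0 ± 2.68 to 24.8 ± 8.34 and 26.0 ± 2.95 (adjusted p = 0.0248 and 0.0103). MAPK3, the kinase ERK1, fell from 20.2 to 12.5 and 10.8 FPKM (adjusted p = 0.000104 and 1.27e-05). Of 22 cyclins and CDKs that act outside this step, 2 were higher and 2 lower at 10 mM, and 4 were higher and 6 lower at 20 mM, where 12 were not called (median log2 difference -0.04 and -0.09). CCNI rose from 54.6 to 78.4 and 80.9 FPKM (adjusted p = 0.00019 at 20 mM), CDK13, a transcriptional kinase, from 1.93 to 2.88 at 20 mM (adjusted p = 0.0194), whereas CDK5 fell from 16.4 to 11.9 (adjusted p = 0.00755) and CDK19, of the Mediator complex, from 1.68 to 1.04 (adjusted p = 0.00913).

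The genes most like each of the 10 in pattern were sought by Pearson's r of log2(FPKM + 1) over the 9 libraries, among 6013 other genes with a mean of at least 5 FPKM. For E2F1 they were CDC20 and MCM7 (r = 0.999 for both), for CDK2 HMGB2 and HMGB3 (0.997 for both), and for E2F2 SDC4 (0.996) and MCM6 (0.995). For CCND1 they were PEG10 (0.995) and RFX5 (0.994), for CCND3 GAS6 and FDPS (0.996 for both), for CCNE1 TMEM179B (0.964) and ARRB2 (0.956), and for CCNE2 PPP2R5C and POLR2D (0.983 for both). For CCND2 they were AARS1 (0.998) and C6orf141 (0.996), for CDK6 AMPD3 (0.993) and MCL1 (0.991), and for CDK4 STK16 (0.954) and IFI27L1 (0.951). The 9 libraries share 3 doses, so any genes that differ by dose in a like way score high, and r is a description only. AARS1, the alanyl-tRNA synthetase nearest to CCND2, was at 21.0, 35.7 and 38.0 FPKM in the 3 groups, and MCM7, a subunit of the replicative helicase near E2F1, at 104, 53.2 and 48.0 FPKM.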

How the data were processed

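The authors extracted total RNA, prepared libraries with a SMARTer mRNA kit and deposited FPKM values, 1 file per library. Their processing notes name the build GRCh38 (hg38); aligner, counter and strand setting are not given in the sources used here. A gene's FPKM moves in steps of 1 read, from which library totals and reads per gene were recovered. Where the exon length of GENCODE release 29 did not bring reads within 0.02 of whole numbers, the smallest length that did was taken. For such genes whole reads were the rule of the search and are no check of the read numbers. A gene was tested if 3 or more libraries reached 10 reads, scaled to the median depth, and all 9 together held 15 or more. The exon lengths of GENCODE release 29, which served for coordinates and overlaps, gave whole reads for 16945 of the 32806 genes above 0. The lengths taken for the others differ from them. Among these are CCND1, CCND2, CCND3, CDK2, CDK4 and CDK6, so the overlaps may not describe the exons counted for them. Counts of reads carry counting error, 5.77% to 16.3% for the low gene E2F2.

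limma 3.58.1 in R 4.3.3 was fitted to log2(FPKM + 1) over 16570 genes (lmFit, contrasts, eBayes with trend, all 9 libraries, no block), with Benjamini-Hochberg adjustment over all of them. The fit was tested on simulated data with the same spread for all genes and groups. Such data cannot show how the fit does where the spread differs between groups, as it did here. Tests were two-sided. Replicates correlated at 0.9889 to 0.9961 and differed by more than sampling noise, so none was merged. Another pseudocount, filters, scalings, groups in the fit, a replicate block, limma-voom, call rules and left-out libraries were tried. The 10 genes, the lists, the markers and the E2F consensus were chosen with earlier results of these data known. Named list genes were the 2 highest and 2 lowest log2 differences at 20 mM of each network list, plus RB1, RBL1, E2F3, CDKN1A, CDKN1B, CDKN2A, CCNA2, MYC and CDC25A, and of the 10 genes' nearest patterns the first 2. One gene that this rule names is not reported here. Lactate-treated cells are not analysed here.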

Additional observations from a re-analysis of the deposited data

How the results depend on the processing

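Of the calls of single genes, 289 values under alternatives kept direction and call and 29 kept direction but lost the call. In uncalled comparisons 205 were unchanged in this sense, 1 became a call (CDK4 at 10 mM, in the text) and 7 changed sign. The count of 7 lower genes at each dose fell to 2 (10 mM) and 3 (20 mM) under an unadjusted p below 0.05 with an absolute log2 fold change over 1, where 0 genes were higher. Under the same rule, 4 were lower and 1 (CCND2) was higher at each dose with a pseudocount of 0.1 and also with limma-voom. These combinations were chosen after seeing the data. With limma-voom, 5.17% (10 mM) and 7.19% (20 mM) of all genes were lower under this rule, and 4.4% and 5.59% were higher. Adding 1 shrinks log2 changes, most in low genes. The count of 2 higher genes was 1 at both doses with all genes above 0, with FPKM of at least 1 in every library (7 of the 10 genes left, without CCND2), with an adjusted p under 0.01 and with the replicate block, and 1 at 10 mM with only the 2 groups in the fit. Leaving out a library gave 1 to 2 higher genes at each dose. With all genes above 0, CCNE1 at 10 mM had an adjusted p of 0.054. The sign of uncalled differences changed for CDK4 at 20 mM (0.02 and 0.05 under median-ratio and upper-quartile scaling). Between the doses it changed when a library was left out for CDK4 (-0.03 without 10 mM replicate 3, range -0.03 to 0.16), CCNE1 (0.05 without 20 mM replicate 3, range -0.19 to 0.05) and CDK6 (0.10 without 10 mM replicate 1 and 0.03 without 20 mM replicate 1, range -0.09 to 0.10), and for CDK6 also under upper-quartile scaling (0.01). The cause was not tested.

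Deviations of same-numbered libraries from their group means correlated at -0.406 to 0.293 over 9 pairs, against -0.23 to 0.521 for different numbers. The deviations within a group cancel out for each gene, so these correlations depend on each other. They cannot settle whether the numbers pair the libraries. The highest values were for control replicate 1 with 10 mM replicate 2 (0.521) and control replicate 2 with 10 mM replicate 1 (0.488). A pairing other than by number was not tested. The block lost the call of CDK6 at both doses and moved the genes called from 29.6% to 26.0% at 10 mM and from 37.0% to 33.5% at 20 mM. Over all genes at 20 mM, 2544 were higher and 3582 lower, against 2923 and 3057 with median-ratio and 3277 and 2780 with upper-quartile scaling. At 10 mM, 2010 and 2903 became 2238 and 2487, and 2481 and 2326. With 3 libraries a group, no difference between the doses was called for any gene in the fit as reported.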
